A study of Mus musculus with 18 samples.

Results

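Genes named Spata (spermatogenesis associated) or Tex (testis expressed) were followed through juvenile testes of mice homozygous for repro9 and of wild-type mice. The members were all genes on the array whose symbol is Spata or Tex followed by a number, without Tex12 and Tex15, and each was read from the probe set with the highest mean log2 signal over all 18 arrays among those annotated to that gene alone. This gave 53 members, 22 Spata and 31 Tex genes, of 18193 genes on the array. Of 65 genes in the RefSeq table that fit the naming rule, the other 12 had no probe set annotated to them alone and were not analysed here. The rule used names and overall signal only, not a difference between groups. The groups were repro9/repro9 mutants at 14 days postpartum (dpp, 5 arrays), wild type at 14 dpp (3 arrays), mutants at 17 dpp (5 arrays) and wild type at 17 dpp (5 arrays). All were whole testis. No source used here ties an array to an animal, so each p measures the spread between these samples, which may be technical. The repro9 allele lies in Mybl1, the gene of A-MYB, which switches on transcription in spermatocytes. The series' text chose the ages for their early to middle pachytene and their late pachytene to diplotene spermatocytes. In a whole tissue, fewer cells of a type and less RNA per cell cannot be told apart, and this holds for every difference below.

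Spata and Tex are naming series and not gene families: a gene received such a name because its transcript was first found in testis or in differentiating germ cells, and members need not share sequence or function. Some act in sperm, such as Spata16, which is needed to form the acrosome (the enzyme-filled cap of the sperm head), Spata6, which builds the connecting piece between sperm head and tail, and Spata33, which anchors the phosphatase calcineurin to sperm mitochondria. Tex11 promotes crossing over between meiotic chromosomes, and Tex14 keeps open the bridges that join sister germ cells. Others, such as Tex2, Tex10, Tex264, Spata2 and Spata13, are used in many tissues. Male germ cells enter meiosis in the second week after birth and pass through the long pachytene stage, in which many genes of later sperm formation are first transcribed.

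The promoters of 4 members are printed because these genes carried the largest or the latest-starting differences between genotypes and hold letters of interest near the start of transcription. Each runs from 250 bases before to 50 bases after the start that RefSeq gives on build GRCm38.p6, and all 4 lie on the + strand: Spata4 at chr8:54600531-54600830, Spata33 at chr8:123212608-123212907, Spata16 at chr3:26637381-26637680 and Tex47 at chr5:7303914-7304213. Capitals in Spata4 and Spata33 mark GTTGCCA, part of the X-box that RFX factors bind, and capitals in Spata16 and Tex47 mark a core MYB site (CAACTG or TAACTG, and CAACGG or TAACGG, read on either strand).
Spata4: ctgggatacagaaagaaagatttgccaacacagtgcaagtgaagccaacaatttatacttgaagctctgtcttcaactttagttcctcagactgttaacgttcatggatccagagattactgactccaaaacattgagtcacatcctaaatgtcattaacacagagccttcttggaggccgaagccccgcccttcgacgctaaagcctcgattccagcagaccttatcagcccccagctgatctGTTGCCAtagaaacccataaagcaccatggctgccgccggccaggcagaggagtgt
Spata33: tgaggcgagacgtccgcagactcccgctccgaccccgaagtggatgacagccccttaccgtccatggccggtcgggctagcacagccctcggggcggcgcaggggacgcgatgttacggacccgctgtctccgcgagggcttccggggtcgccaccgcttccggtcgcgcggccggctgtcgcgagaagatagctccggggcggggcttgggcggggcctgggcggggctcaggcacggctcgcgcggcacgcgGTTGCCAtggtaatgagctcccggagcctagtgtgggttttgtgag
Spata16: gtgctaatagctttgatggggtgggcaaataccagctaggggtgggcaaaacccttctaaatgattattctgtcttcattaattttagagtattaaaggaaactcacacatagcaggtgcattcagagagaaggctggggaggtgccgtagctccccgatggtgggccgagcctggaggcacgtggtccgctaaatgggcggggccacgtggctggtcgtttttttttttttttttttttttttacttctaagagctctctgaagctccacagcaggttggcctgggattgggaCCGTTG
Tex47: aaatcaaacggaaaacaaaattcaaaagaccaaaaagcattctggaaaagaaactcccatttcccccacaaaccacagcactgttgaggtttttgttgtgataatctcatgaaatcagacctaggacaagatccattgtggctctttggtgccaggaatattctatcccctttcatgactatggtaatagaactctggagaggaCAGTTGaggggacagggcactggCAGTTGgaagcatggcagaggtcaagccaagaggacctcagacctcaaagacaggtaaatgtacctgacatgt
The GTTGCCA letters began 6 bases before the start in Spata4 and 5 bases after it in Spata33. The MYB core letters began 45 bases after the start in Spata16 and 46 and 23 bases before it in Tex47. A match describes letters in a window and is not a measured binding site. A promoter was found for 45 of the 53 members. The MYB core letters were in 18 of these 45 (40%), in 3 of the 10 with a lower level in mutants at 17 dpp (30%), and in 31.1% of the promoters of all 27025 genes with one. GTTGCCA, searched on both strands and chosen after these sequences had been read, was in 3 of the 45 (6.67%), Spata4, Spata33 and Tex33, and in 5.02% of all genes. The palindromic cAMP response element was in 1 of the 45, Spata7, and in 2.03% of all genes.

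Signals are MAS5 intensities on a linear scale, and differences are given on the log2 scale as mutant minus wild type with the SE from limma. Median signal per array ran from 88.7 to 148.6, and precision is limited by how many arrays there are. Of the members, 44 passed the filter on low signal (above the array's own 40th percentile on at least 3 arrays) and were tested, while 9 were too dim. The 3' to 5' ratio of the β-actin control probe sets put the arrays in 3 sets that the labels do not name: set 1 at 2.31 to 2.92 (7 arrays of all groups), set 2 at 1.45 to 1.49 (4 arrays of 14 dpp) and set 3 at 102.6 to 125.1 (3 mutant and 4 wild-type arrays of 17 dpp). Set 3 holds most arrays of 17 dpp, so results are also given within sets. Mybl1 itself was lower in mutants at 17 dpp (−3.46 ± 0.45, adjusted p = 5.25e-05) and at 14 dpp missed the threshold (−2.33 ± 0.52, adjusted p = 0.112). All 8 pachytene markers were lower in mutants at 17 dpp, and their summed signal was 1565 to 3414 in mutants and 60307 to 125342 in wild type. At 14 dpp 7 of the 8 were lower, with sums of 1179 to 2173 against 10445 to 15978. Markers of other cell types lay toward higher signal in mutants at 17 dpp, with median differences of 0.96 for spermatogonia (7 of 7 genes positive), 0.70 for Sertoli cells (8 of 8), 1.0 for Leydig cells (4 of 4), 0.63 for myoid cells (5 of 5), 0.39 for endothelial cells (4 of 5) and 1.05 for macrophages (6 of 6), beside 0.26 over all genes tested. Of these markers Csf1r, of macrophages, passed the test at that age and none passed at 14 dpp, where the medians ran from 0.05 to 0.37. The summed macrophage signal was 5423 to 9178 in mutants and 2758 to 5072 in wild type of 17 dpp. Early meiotic markers had a median of −0.34, and Dmc1 (1 of 8) was higher in mutants. On a common median or after quantile normalization the 6 medians of other cell types stayed positive (0.14 to 0.93), beside 0.12 over all genes tested. Neither Csf1r nor Dmc1 passed on a common median. Under either scaling 1 early meiotic marker was lower, and after quantile normalization 1 was higher. With the array set in the model, 3 spermatogonial, 3 Sertoli, 1 myoid and 3 macrophage markers were higher in mutants, as were 14.5% of all genes. That model also called 3 early meiotic markers and 1 spermatid marker higher. It called 2 early meiotic markers lower, as it did 1748 of all 15266 genes. Of 8 round spermatid markers (sums of 395 to 1817), none of the 5 tested passed in the model without array set. Spaca1 lay above the 40th percentile on all 18 arrays and Prm1 on 16 of 18. Tnp2, Tssk2 and Odf1 were below it on every array. The part of cell numbers in the differences below was not tested.

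At 17 dpp, 12 of the 53 members were lower in mutants and 1 was higher, at an adjusted p under 0.05. Of all 15266 genes tested, 5.84% were lower and 2.04% higher. The 12 were Spata1, Spata4, Spata6, Spata16, Spata17, Spata24, Spata33, Tex2, Tex9, Tex24, Tex30 and Tex47, and the 1 higher member was Spata13. The difference was negative for 36 of the 53 members, with a median of −0.40. Over all 18193 genes without a filter the median was 0.23, and 38.0% were negative. Putting all arrays on a common median moved the median of the tested genes from 0.26 to 0.12 and left 880 of all genes lower and 60 higher, against 892 and 311 as deposited. For 9 members every mutant array lay below every wild-type array, a pattern seen in 5% of all genes tested, and the reverse (2.06% of all genes) was seen for no member. The Spata genes gave 7 of the lower members (of 22, 19 tested) and the Tex genes 5 (of 31, 25 tested). At 14 dpp the single call was Spata4, lower in mutants, where 0.321% of all genes were lower and 0% higher. Another 3 members had an unadjusted p under 0.05 at that age, and the median over the 53 was −0.01. Such a p was found for 366 of all 15266 genes. Every mutant array lay below every wild-type array at 14 dpp for Spata4, Spata33 and Spata18 (4.49% of all genes) and above for Spata13 and Tex13b (2.26%).

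**Figure D1:**
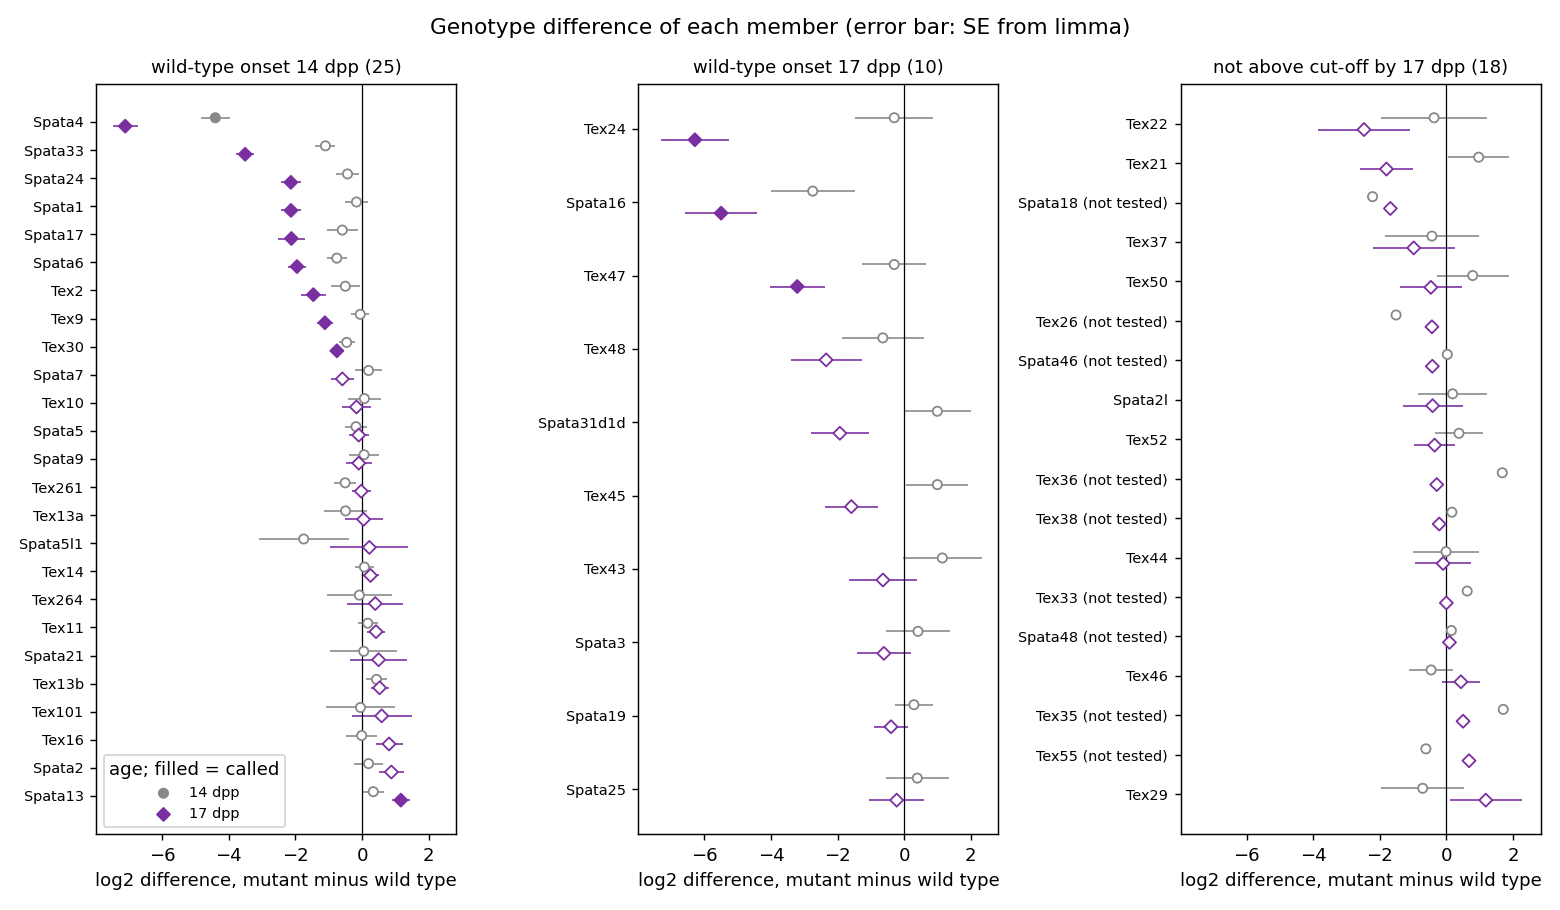
Log2 difference between mutants and wild type for each of the 53 members at 14 dpp (grey circles) and 17 dpp (purple diamonds), with the SE from limma where the member was tested. Filled symbols passed an adjusted p of 0.05: 1 at 14 dpp and 13 at 17 dpp, and all 10 members with a wild-type onset at 17 dpp lie left of 0 at that age.

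Onset in wild type was read from the same percentile. A member present on at least 2 of the 3 wild-type arrays at 14 dpp had an onset at 14 dpp, and one that reached it on at least 3 of the 5 wild-type arrays at 17 dpp had an onset at 17 dpp. There were 25 members with an onset at 14 dpp (47.2%), 10 at 17 dpp (18.9%) and 18 that stayed below (34.0%), beside 70.2%, 6.33% and 23.4% of all genes. The 10 of 17 dpp were Spata3, Spata16, Spata19, Spata25, Spata31d1d, Tex24, Tex43, Tex45, Tex47 and Tex48. With the 50th percentile only 4 were left in this class, and with the 30th there were 12. Of the 25 early members, 9 were lower in mutants at 17 dpp and 1 was higher. Of the 10 later ones 3 were lower (Tex24, Spata16 and Tex47), and all 10 differences were negative, from −6.28 to −0.23. That direction is a description only, because these genes were sorted by the wild-type arrays they are compared with. None of the 9 tested members of the third class passed the test at 17 dpp. Of the 44 tested members, 8 passed the filter only through wild type at 17 dpp (Spata16, Spata19, Spata31d1d, Tex21, Tex24, Tex45, Tex47 and Tex48).

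Among the 7 members listed for spermatids and sperm, 3 were lower in mutants at 17 dpp (Spata33, Spata16 and Spata6) and 2 were tested without passing. Spata33 had signals of 1161, 1459.9 and 1382 in wild type at 14 dpp and of 682, 589.6, 599.9, 649 and 584 in mutants. At 17 dpp wild type reached 7019, 6614, 5633, 2891 and 9021, while mutants were at 639, 685, 432, 389 and 486. Every mutant array lay below every wild-type array at both ages, and the mutants of 17 dpp were on average no brighter than those of 14 dpp. The difference was −3.51 ± 0.26 at 17 dpp (11.4-fold, adjusted p = 1.19e-07) and −1.10 ± 0.30 at 14 dpp (adjusted p = 0.414). Spata33 was the 1 member whose genotype difference itself changed with age in the model without array set (−2.41 ± 0.40, adjusted p = 0.0154), as did 0.36% of all genes in that direction. With the array set added to the model it passed together with Spata4 (−2.39, adjusted p = 0.00876), Spata24 (−1.96, 0.00797), Spata6 (−1.40, 0.0117) and Spata1 (−1.94, 0.0439), where 1.82% of all genes did. The Spata33 call was lost without wild-type replicate 1 or 3 of 14 dpp (adjusted p of 0.0995 and 0.0647), on a common median (0.0645) and within set 1 (0.227). Without the set 3 arrays Spata33 also passed the test at 14 dpp (adjusted p = 0.00151).

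Spata16 was dim before 17 dpp, at 53.8, 137 and 88.0 in wild type and 4.62, 31.4, 5.44, 66.1 and 6.84 in mutants of 14 dpp. In wild type at 17 dpp its signals were 264, 538, 739.6, 632 and 1238, and in mutants they were 1.53, 1.83, 18.7, 150.3 and 55.4. The genotypes did not overlap at 17 dpp, and the mutant arrays spread over a wide range near background. The difference was −5.50 ± 1.09 (adjusted p = 0.00374), and a second Spata16 probe set gave −6.26 ± 0.69 (adjusted p = 7.92e-06). With 32 units added to each signal, which damps values near background, the difference was −3.37. Spata6 was present in all groups, at 903, 960.3 and 603 in wild type and 798, 653, 367, 293 and 436 in mutants of 14 dpp. It was at 2473, 2932, 3334, 2715 and 4142 in wild type of 17 dpp and at 685, 975, 734, 715 and 891 in mutants. The wild-type arrays of 17 dpp stood above all others, and mutants of 17 dpp were within the wild-type range of 14 dpp or just above it. The difference was −1.95 ± 0.27 (adjusted p = 8.98e-05). The call was lost without the set 3 arrays (−1.60, adjusted p = 0.103), where 1 wild-type array of 17 dpp was left. The 3 other Spata6 probe sets gave −2.55, −0.86 and 0.36, none of which passed.

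Spata19, a protein of sperm mitochondria, was dim at 37.9, 123, 88.6, 49.4 and 92.6 in wild type and 31.8, 30.6, 97.9, 163 and 30.7 in mutants of 17 dpp, and the groups overlapped (−0.40 ± 0.50, adjusted p = 0.714). Spata46, which helps to shape the sperm head, and Tex38, the partner of the sperm palmitoyltransferase ZDHHC19, were too dim to test, with no signal over 139 and 68.8. Tex101, a germ cell surface protein needed for the maturation of the sperm protein ADAM3, was bright at 14 dpp, at 9174, 11044 and 13568 in wild type and 11003, 9877, 10410.3, 11971 and 10653 in mutants. At 17 dpp it was at 12550.4, 1554, 976, 646 and 558 in wild type and 14754, 10945, 1171, 602 and 465.6 in mutants. The first wild-type and the first and second mutant arrays of 17 dpp, all of set 1, kept the level of 14 dpp, and the 7 arrays of set 3 were far below in both genotypes. The genotype difference was 0.59 ± 0.90 (adjusted p = 0.772). With the array set added to the model, the change of Tex101 with age was 0.40 in wild type and 0.28 in mutants, against −2.92 and −2.28 without it.

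Of the 33 members in none of the role lists (27 tested), 8 were lower in mutants at 17 dpp and none was higher. Spata4 had the largest difference of all members. It was at 1516, 2975 and 1879 in wild type of 14 dpp and at 78.8, 65.1, 84.8, 152 and 124 in mutants. In wild type of 17 dpp it rose to 14917, 40385, 34419, 23311 and 53739, while mutants were at 145, 155, 379.8, 349 and 173. No mutant array came near a wild-type array at either age, and the brightest mutant array of 17 dpp was still below the dimmest wild-type array of 14 dpp. The difference was −4.41 ± 0.43 at 14 dpp (adjusted p = 7.82e-05), where 3 of the 5 mutant arrays lay above their 40th percentile, so that its size is uncertain, and −7.11 ± 0.38 at 17 dpp (138-fold, adjusted p = 2.44e-09). The growth of this difference with age missed the threshold (−2.71 ± 0.57, adjusted p = 0.0661). It passed with the array set in the model, as given above, with 32 units added (adjusted p = 0.0103), with array weights (0.0119), with means of probe sets (0.0453), and without mutant replicate 3 or 4 or wild-type replicate 1 of 17 dpp (0.0301 to 0.0449). The genotype difference within sets at 14 dpp was −4.89 in set 1 and −4.0 in set 2.

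Tex24 was at background in all but 1 group. Its signals were 1.14, 1.57 and 11 in wild type and 1.66, 0.979, 5.15, 2.05 and 2.96 in mutants of 14 dpp, and 3.83, 0.553, 8.21, 6.56 and 2.53 in mutants of 17 dpp. Wild type at 17 dpp gave 47.4, 474, 334, 241 and 458, so that all of its 5 arrays stood above every other array. The difference was −6.28 ± 1.02 (adjusted p = 0.000554), but every mutant array was below its 40th percentile, and with 32 units added it shrank to −2.99. The first wild-type array, the 1 in set 1, was the dimmest of the 5, and within set 1 the call was lost (−5.03, adjusted p = 0.128). Tex47 was at 274, 106, 82.9, 107 and 286 in wild type of 17 dpp and 3.33, 12.9, 104, 6.00 and 40.5 in mutants, where the third array lay within the wild-type range. Its difference was −3.21 ± 0.83 (adjusted p = 0.0276). The Tex47 call was lost without mutant replicate 1, 2 or 4 or wild-type replicate 5 of 17 dpp (adjusted p of 0.0595 to 0.0895) and the difference was −2.13 within set 3.

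Spata1, Spata24 and Spata17 were present in both genotypes at 14 dpp without passing the test and were lower in mutants at 17 dpp. Spata1 had signals of 849, 1058 and 1262 in wild type and 906, 959, 974, 829.3 and 984 in mutants of 14 dpp. At 17 dpp wild type had 3494, 4477, 4255, 1958 and 8671 and mutants 1001, 1125, 706, 651 and 1338. Every wild-type array of 17 dpp exceeded every mutant array, and the mutants stayed at the level of 14 dpp (−2.13 ± 0.31, adjusted p = 0.000164). Spata24 went from 626, 729 and 524 to 2253, 1426, 1647, 1029.5 and 2850.3 in wild type. In mutants it was at 596, 525.7, 432, 404 and 373 at 14 dpp and 637, 494, 373, 338 and 238 at 17 dpp. Its difference at 14 dpp was −0.44 ± 0.35 and passed with array weights (−0.63, adjusted p = 0.0184). Array weights called 1187 of all genes lower at that age, against 49 in the main fit. The groups of 17 dpp did not overlap (−2.14 ± 0.30, adjusted p = 0.000116), although the mean of both Spata24 probe sets missed the threshold (−1.47, adjusted p = 0.0642). Spata17, a protein with calmodulin-binding IQ motifs, was at 288, 324 and 415 in wild type and 165, 219, 304, 205 and 250.1 in mutants of 14 dpp, where 4 of the 5 mutant arrays lay below every wild-type array (−0.59 ± 0.47, adjusted p = 1). At 17 dpp it was at 486, 387, 392, 426 and 626 in wild type and at 189.6, 174, 36.7, 58.5 and 179 in mutants. The 2 dimmest mutant arrays were of set 3, and no mutant array reached wild type (−2.12 ± 0.40, adjusted p = 0.00267). Its change with age was 0.43 ± 0.47 in wild type and −1.10 ± 0.40 in mutants, and neither passed. A second, dimmer Spata17 probe set gave 0.00 ± 0.67. Within set 1 the calls of Spata1 and Spata17 were lost (−1.72 and −1.42, adjusted p of 0.175 and 0.401).

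Tex9 was at 1662, 2158, 2484, 2003 and 3464 in wild type of 17 dpp and 957, 681, 1133, 1356 and 1297 in mutants, without overlap (−1.11 ± 0.24, adjusted p = 0.00645). Other Tex9 probe sets did not follow it (0.16 and −0.01), and the mean over its probe sets gave −0.03. Tex30 was among the brightest members at 10779, 20459, 19389, 17929.7 and 20076 in wild type of 17 dpp and 9178, 8376, 9156, 11794 and 13541 in mutants. Only the first wild-type array fell into the mutant range. The difference was the smallest of those called (−0.76 ± 0.20, adjusted p = 0.0369), and it was lost without any 1 of wild-type replicates 2 to 5 or mutant replicates 1 to 3 of 17 dpp or wild-type replicate 1 of 14 dpp (adjusted p of 0.0519 to 0.108). Tex30 and Tex47 (0.0369 and 0.0276) lay just inside the threshold. The next members in rank lay well outside it, Spata2 (0.88 ± 0.37, adjusted p = 0.197) and Tex21 (−1.80 ± 0.80, adjusted p = 0.223). Spata2 passed as higher without wild-type replicate 1 of 17 dpp (1.18, adjusted p = 0.0309).

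**Figure D2:**
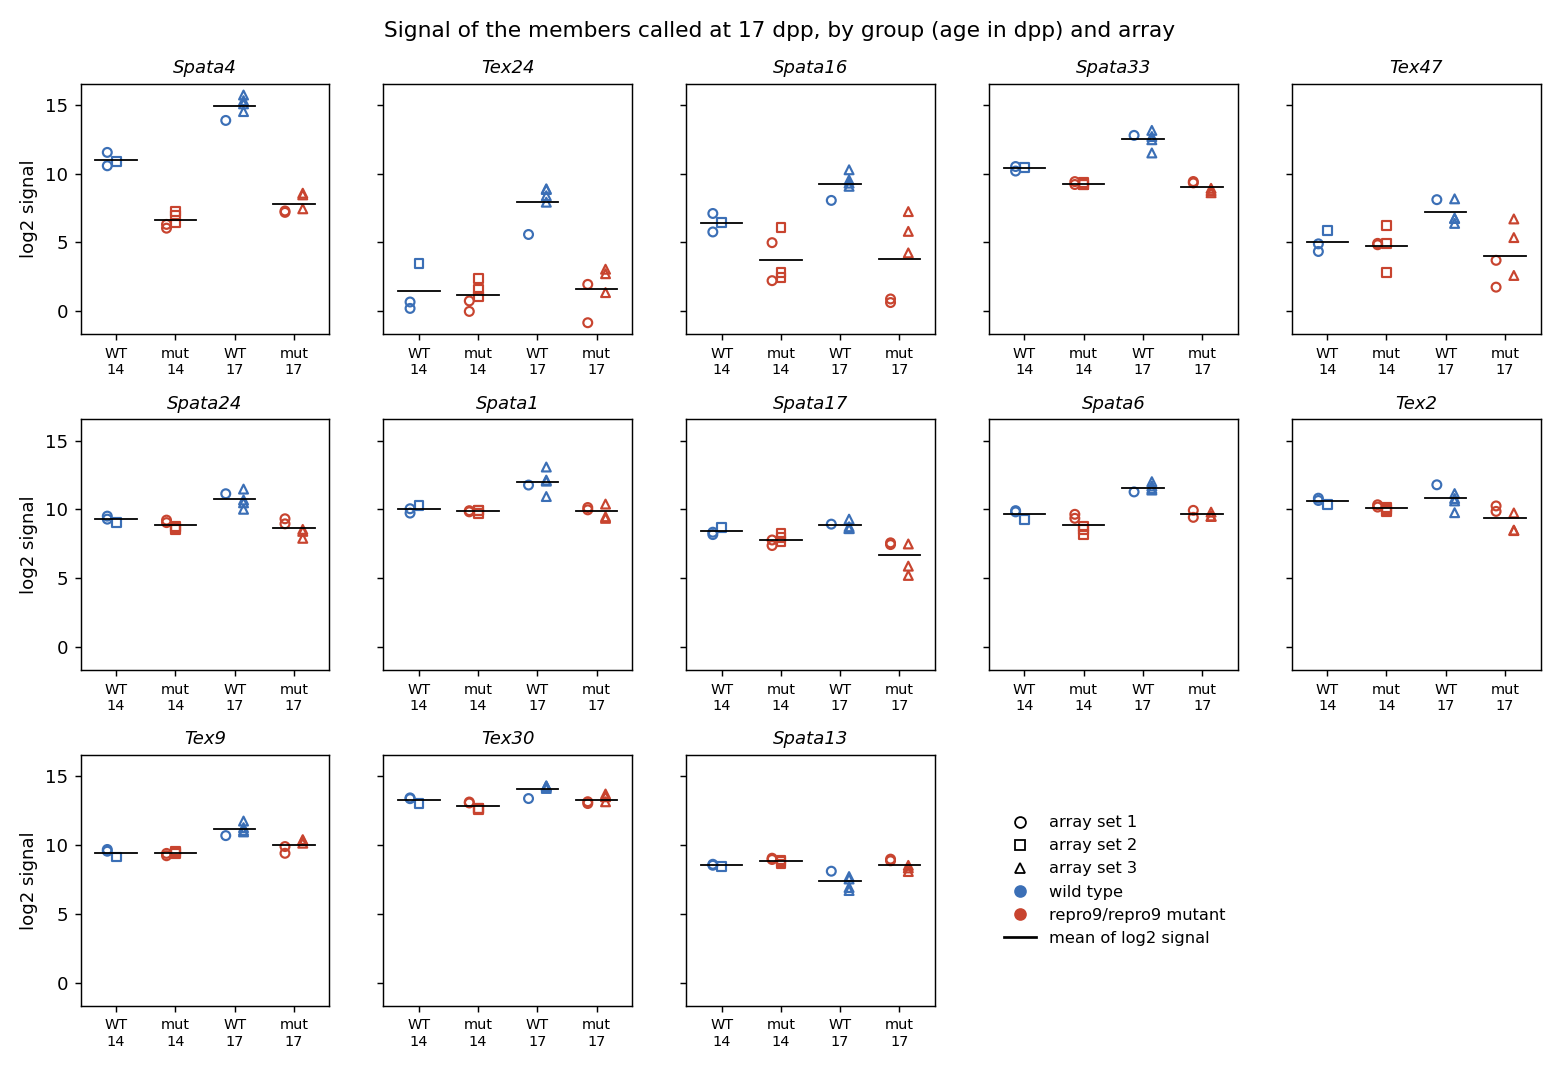
Log2 signal on each array for the 13 members called at 17 dpp, by group, with wild type in blue, mutants in red, the array set as symbol and the group mean of log2 signal as a line. In Spata4 and Spata33 the genotypes are apart at both ages, in 10 members wild type stands above mutants mainly at 17 dpp, and Spata13 runs the other way.

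Tex11 and Tex14, the 2 members listed for meiotic prophase and germ cell bridges, did not pass the test at either age. Tex14 was at 2369, 2402 and 2072 in wild type and 2561, 2407, 2493, 2237 and 2273 in mutants of 14 dpp, and at 2539, 1759, 1789, 1223 and 1564 and 3630.2, 2508, 1531, 1647 and 1603 at 17 dpp. All 4 groups overlapped, and the difference at 17 dpp was 0.25 ± 0.24 (adjusted p = 0.609). Tex11 is 1 of 4 X-linked members, with Tex13a, Tex13b and Tex16. Tex11 was at 1599.7, 1868 and 1495 in wild type and 1883, 1646, 1932, 1896 and 1951 in mutants of 14 dpp. At 17 dpp it was at 837, 1780.4, 1987, 1770.0 and 1331 in wild type and 1275, 1484, 2357, 1990.0 and 3376 in mutants, and the groups overlapped (0.42 ± 0.27, adjusted p = 0.413). Tex16 was at 942, 999, 1986, 2043 and 1155 in wild type of 17 dpp and 1332, 2083, 3201, 3393 and 2435 in mutants, with overlap (0.81 ± 0.41, adjusted p = 0.284). Tex13b was at 1399, 2595, 3428, 3209 and 1840.3 in wild type and 1944, 2838, 4139.7, 3907 and 5128 in mutants, with overlap (0.53 ± 0.27, adjusted p = 0.292), and the dim Tex13a gave 0.05 ± 0.57. None of the 4 passed, and the differences at 17 dpp ran from 0.05 to 0.81, beside the median of 0.23 over all genes. Within each array set of 17 dpp every mutant array of Tex11, Tex13b and Tex16 lay above every wild-type array. With the array set added to the model these 3 were higher in mutants (Tex11 0.61, Tex13b 0.71 and Tex16 0.96, adjusted p of 0.0104, 0.00577 and 0.00468), while Tex13a was not (0.22, adjusted p = 0.816). That model called 14.5% of all genes higher at 17 dpp, and 5 members with Spata13 and Spata2. On a common median or after quantile normalization Tex11, Tex13b and Tex16 stayed positive, and Tex13a turned negative (−0.10 and −0.05).

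Of the 11 members with functions in many tissues (10 tested), Tex2 was lower and Spata13 higher in mutants at 17 dpp. Tex2, an endoplasmic reticulum protein of lipid transfer, was at 1604, 1799.8 and 1284 in wild type and 1149, 1291, 1126, 1034 and 905 in mutants of 14 dpp. At 17 dpp it was at 3538, 2269.7, 1568, 867 and 1772 in wild type and 925, 1218, 359.9, 351 and 855 in mutants. The genotypes overlapped over all arrays but not within a set, and set 3 was dimmer than set 1 in both. The difference was −1.46 ± 0.37 (adjusted p = 0.0242), and it was lost without mutant replicate 3 or 4 or wild-type replicate 2 or 5 of 17 dpp (adjusted p of 0.0561 to 0.0677). Spata13, an exchange factor that activates the small GTPases Rac1 and Cdc42, was at 373, 392 and 357 in wild type and 532, 498, 459, 485 and 397 in mutants of 14 dpp. At 17 dpp it was at 276, 186, 211, 121 and 104 in wild type and 467, 507, 326, 370.3 and 272 in mutants. Wild type was lower at 17 than at 14 dpp. This age call was lost with the array set in the model (adjusted p = 0.231) and after quantile normalization (0.244). At 17 dpp only the brightest wild-type array of Spata13 reached into the mutant range (1.16 ± 0.28, adjusted p = 0.0152). Its other probe sets gave −0.44 and 0.94 without passing, and the call was lost on a common median (1.02, adjusted p = 0.0924) and without wild-type replicate 5 of 17 dpp (adjusted p = 0.052).

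The other members with general functions did not pass. Spata5, an AAA ATPase of ribosome biogenesis, was at 4672, 5025, 4529.8, 3137 and 3989 in wild type and 5843, 5734, 3193, 1793 and 4911 in mutants of 17 dpp, with an SE larger than its difference (−0.10 ± 0.30). Its relative Spata5l1 was dim and scattered (0.22 ± 1.17). Tex261, which helps proteins leave the endoplasmic reticulum, differed by −0.02 ± 0.28, and Spata7, a protein of the photoreceptor cilium, by −0.59 ± 0.34. Tex264, a receptor for the autophagy of the endoplasmic reticulum, was at 770.4, 221, 192, 49.8 and 83.9 in wild type and 949, 1025, 323, 40.6 and 42.5 in mutants of 17 dpp. Like Tex101 it was bright on the arrays of set 1 and dim on those of set 3 in both genotypes (0.40 ± 0.84). Tex10, a ribosome biogenesis factor, ran the other way with the sets, at 6762, 19265, 20521, 28437 and 25055 in wild type and 5836, 9035, 28398, 35759 and 19912 in mutants of 17 dpp (−0.17 ± 0.43). Spata2, which links the deubiquitinase CYLD to the linear ubiquitin ligase complex, was at 699, 198, 277, 295 and 223 in wild type and 949.8, 912, 341, 564 and 321 in mutants of 17 dpp and was again brightest on set 1. Its relative Spata2l stayed dim (−0.41 ± 0.90).

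**Figure D3:**
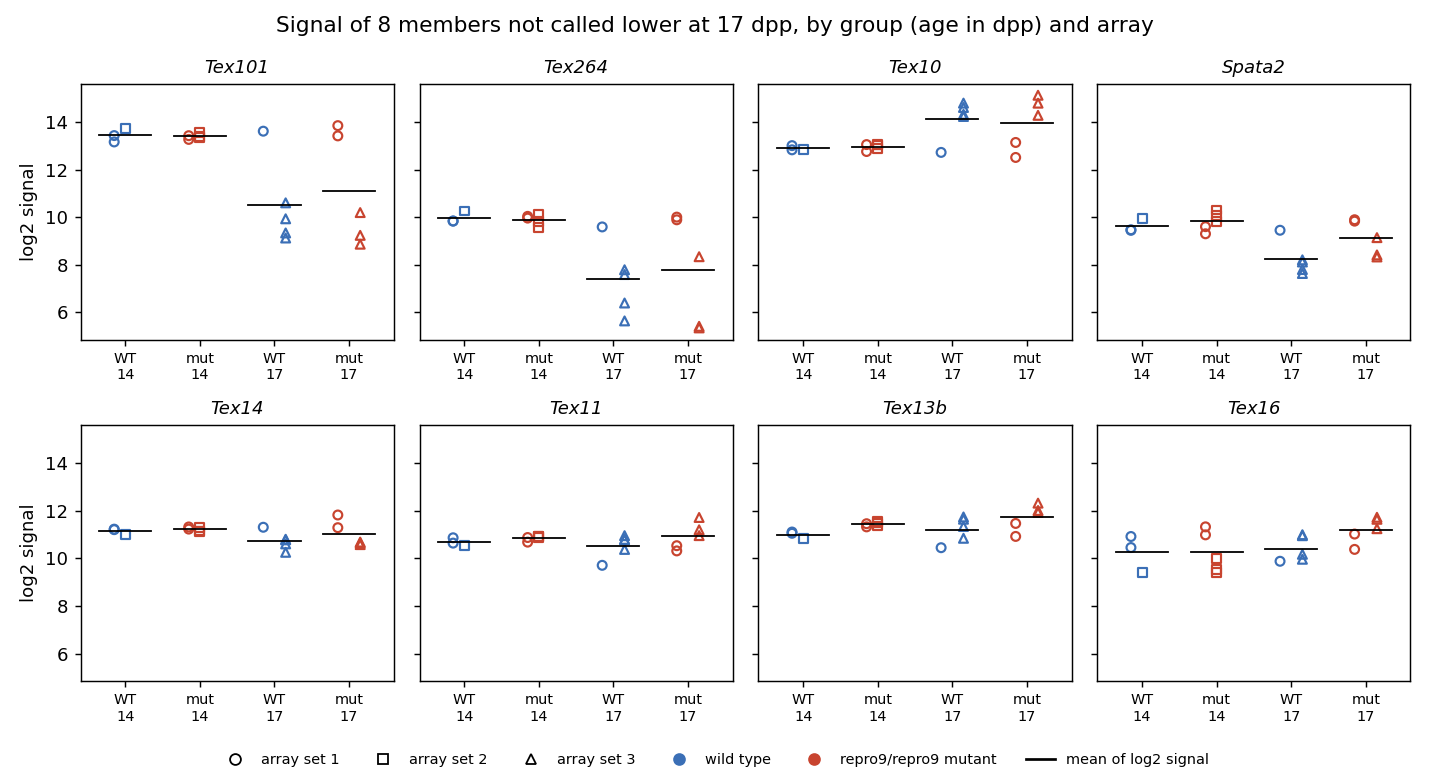
Log2 signal on each array for 8 members not called lower at 17 dpp, by group, with wild type in blue, mutants in red, the array set as symbol and the group mean of log2 signal as a line. Tex101, Tex264 and Spata2 are lower and Tex10 is higher on the set 3 arrays in both genotypes, and Tex14 and the X-linked Tex11, Tex13b and Tex16 overlap between the genotypes at 17 dpp over all arrays.

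Between 14 and 17 dpp in wild type, 9 members rose (7.05% of all genes rose) and 2 fell (18.9% of all genes fell). Those that rose were Spata4, Spata33, Spata24, Spata1, Spata6, Tex9, Tex30, Tex24 and Tex45, and those that fell were Spata13 and Spata2. The rise was 3.90 ± 0.43 for Spata4, 6.49 ± 1.18 for Tex24, 3.09 ± 0.93 for Tex45 and 2.14 ± 0.30 for Spata33. In mutants no member passed the test for age in limma, in either direction, where 0.648% of all genes rose and 1.12% fell. An unadjusted p under 0.05 was found there for 9 of the 44 tested members and for 4625 of all 15266 genes. Without mutant replicate 1 or 2 of 17 dpp Spata4 passed as higher (adjusted p of 0.0296 and 0.0358) and Spata17, Tex101 and Tex264 as lower (0.0276 to 0.0453), Tex10 passed as higher without the first (0.0266) and Tex9 without the second (0.0329), and Spata4 also passed without wild-type replicate 1 of 17 dpp (0.0367). The mutant change was 1.19 ± 0.38 for Spata4 (adjusted p = 0.0754), 0.50 ± 1.02 for Tex24, 0.51 ± 0.80 for Tex45 and −0.27 ± 0.26 for Spata33. Tex45 rose in wild type from 11.9, 11.5 and 4.91 to 272, 74.3, 38.3, 19.5 and 149.8, and mutants of 17 dpp were at 38.3, 33.6, 6.00, 28.9 and 41.5. Spata2 was at 709, 698 and 996 in wild type of 14 dpp, and its 1 wild-type array of 17 dpp in set 1 (699) was at that level. The genotypes of Tex45 overlapped at 17 dpp (−1.59 ± 0.80, adjusted p = 0.29). The ages differ in their array sets, so age and set are partly mixed. The median change with age over all genes tested was −0.41 in wild type and −0.26 in mutants. On a common median these were −0.06 and 0.07, wild type had 626 genes that fell and 1463 that rose against 2890 and 1077 as deposited, and neither Spata13 nor Spata2 passed. Within set 1, with 2 wild-type arrays of 14 dpp and 1 of 17 dpp, Spata4 (2.81), Spata33 (2.43) and Spata6 (1.41) passed, while Tex30 differed by −0.02 and Spata2 by −0.01.

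Leaving out 1 wild-type array ended some of these age calls. The rise of Tex30 was lost without any 1 of the wild-type arrays except replicate 1 of 17 dpp (adjusted p of 0.0501 to 0.121). The fall of Spata2 was lost without the same arrays (0.0535 to 0.121). The rise of Tex45 was lost without any of the 3 wild-type arrays of 14 dpp or replicate 2 or 5 of 17 dpp (0.0505 to 0.112). The fall of Spata13 was lost without any of the 3 of 14 dpp or replicate 5 of 17 dpp (0.0527 to 0.077), and the rise of Spata24 without replicate 1 or 3 of 14 dpp (0.052 and 0.0587). The rise of Spata24 was also lost with the mean of its probe sets (adjusted p = 0.868). Its second probe set went the other way in wild type, from a mean of 192.7 at 14 dpp to 84.3 at 17 dpp.

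**Figure D4:**
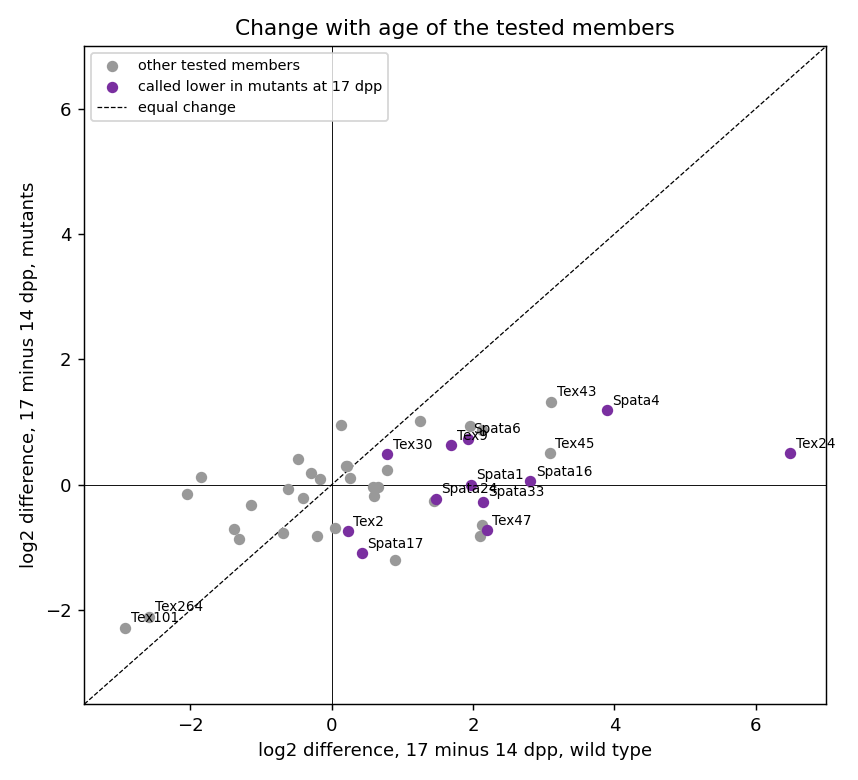
Log2 difference between 17 and 14 dpp in wild type (horizontal) and in mutants (vertical) for the 44 tested members, with the 12 called lower in mutants at 17 dpp in purple and equal change as a dashed line. Spata4, Tex24 and Spata33 lie far to the right at mutant changes of 1.19, 0.50 and −0.27, while Tex101 and Tex264 lie at negative values on both axes; the purple class shares its wild-type arrays of 17 dpp with the horizontal axis.

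The genotype difference at 17 dpp was also read within array set 1 (2 mutant arrays, 1 wild-type array) and within set 3 (3 mutant, 4 wild-type arrays). The 12 lower members were called from these same arrays, so their signs within the sets are a description. The 1 wild-type array of set 1 was assumed to vary like the other arrays. All 12 were negative in both sets. In set 3, 11 of them passed (8.69% of all genes did), and in set 1, 5 passed (4.09% of all genes did), all 5 in both. These were Spata4 (−6.64 in set 1 and −7.00 in set 3), Spata33 (−3.41 and −3.69), Spata16 (−7.30 and −3.79), Spata24 (−2.01 and −2.38) and Spata6 (−1.60 and −2.06). Tex30 differed by −0.30 in set 1 and −0.78 in set 3, Tex9 by −1.04 and −0.97, and Tex2 by −1.74 and −1.68. Tex22 differed by −9.59 within set 1, where the 1 wild-type array of 17 dpp read 791. The other 4 wild-type arrays read 83.3, 4.34, 39.5 and 13.4, and the difference in set 3 was 0.53. Tex22 passed within set 1 and without the set 3 arrays, and both rest on that 1 wild-type array.

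**Figure D5:**
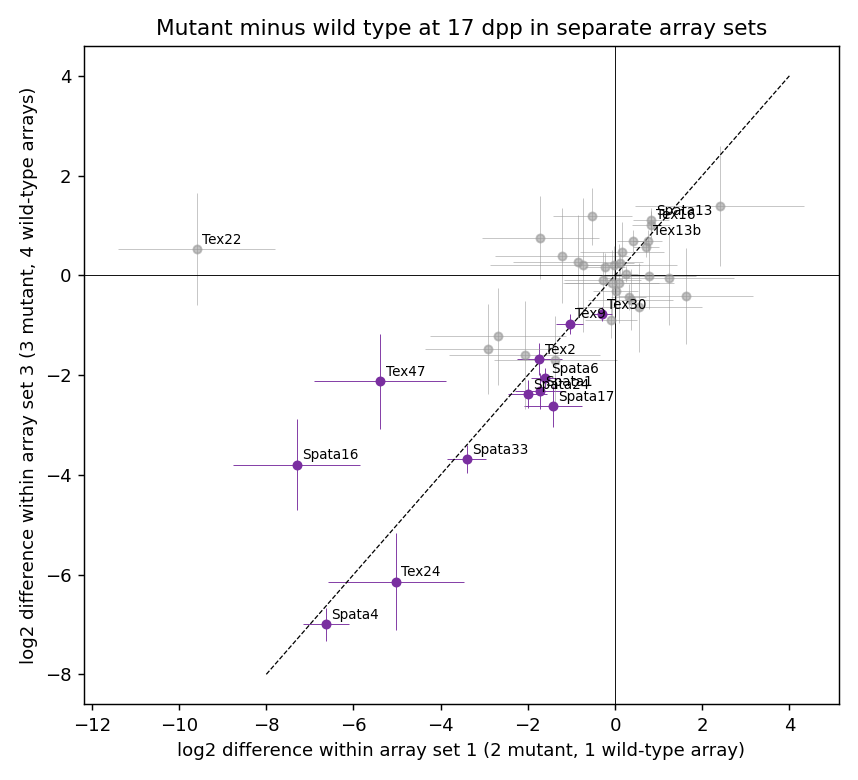
Log2 difference between mutants and wild type at 17 dpp within array set 1 (horizontal, 2 mutant and 1 wild-type array) and within array set 3 (vertical, 3 mutant and 4 wild-type arrays) for the 44 tested members, with the SE from limma and equal difference as a dashed line. The 12 members called lower over all arrays are purple and lie below 0 on both axes, and Tex22 lies at −9.59 and 0.53.

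None of the remaining members passed the test between genotypes over all arrays. Spata9 was present on 17 of 18 arrays, at 84.9, 99.8, 203, 243 and 192 in wild type and 49.4, 139, 188, 219 and 203 in mutants of 17 dpp, and the groups overlapped (−0.10 ± 0.40, adjusted p = 0.929). Spata21, with an onset at 14 dpp, was present on 7 of 18 arrays, at 88.5, 98.1 and 40.5 in wild type of 14 dpp and 37.3, 60.2, 4.11, 34.5 and 58.2 in wild type and 146, 90.9, 83.6, 12.6 and 7.42 in mutants of 17 dpp (0.50 ± 0.87). In the class with an onset at 17 dpp, Tex48 read 13.7, 46.4, 126, 103 and 125 in wild type and 3.54, 2.97, 190.2, 34.1 and 4.5 in mutants of 17 dpp, and the third mutant array was the brightest of all 10 (−2.34 ± 1.06, adjusted p = 0.233). Without that array Tex48 passed the test (−3.33, adjusted p = 0.0488). Spata31d1d read 29.4, 92.3, 105, 102 and 115 and 42.9, 3.01, 77.3, 14.0 and 29.6 (−1.93 ± 0.86, adjusted p = 0.225). Tex43 was brighter in both genotypes on the arrays of set 3, at 22.1, 89.7, 91.3, 71.7 and 112 in wild type and 3.14, 14.4, 254, 147 and 94.4 in mutants (−0.64 ± 1.03). Spata3 was at 26.1, 159, 223, 158 and 172 in wild type and 33.5, 22.9, 54.2, 474 and 155 in mutants of 17 dpp (−0.61 ± 0.82), and Spata25 differed by −0.23 ± 0.82. Of the tested members below onset, Tex21, Tex29, Tex37, Tex44, Tex46, Tex50, Tex52, Tex22 and Spata2l, differences at 17 dpp ran from −2.47 to 1.18. The 9 members too dim to test were Spata18, Spata46, Spata48, Tex26, Tex33, Tex35, Tex36, Tex38 and Tex55. Among them Spata18, which acts in the quality control of mitochondria, read 34.7, 41.5 and 60.4 in wild type and 11.2, 5.70, 8.53, 13.8 and 10.5 in mutants of 14 dpp, without overlap. At 17 dpp its groups overlapped, at 56.4, 52.7, 15.1, 11.8 and 99.7 and 5.33, 14.9, 7.90, 57.0 and 4.34, and no array of 14 dpp lay above its 40th percentile.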

How the data were processed

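The deposited values are signal intensity on a linear scale, 1 per probe set and array. They were made with MAS5 (version not stated), per the submitters' processing notes. The mean without the lowest and highest 2% was 500 on 11 arrays and 394.9 on the 7 of set 3. No normalization was added. Of 45101 probe sets, 64 were controls, 34945 named a single gene, 932 named several and 9160 named none. A model with group means over the 18 arrays (14 residual degrees of freedom) and an intensity trend was fitted to log2 signal in limma 3.58.1 (R 4.3.3). Tests were two-sided, and p was adjusted (Benjamini-Hochberg) over the 34764 probe sets that passed the filter, at 0.05. The fits were tested on simulated data. All 53 members matched the RefSeq table (GRCm38.p6) by Entrez ID. The members, gene lists and tests were chosen with earlier results of these data known. Named are the members called in a genotype comparison or its change with age, those with a listed role, those nearest the threshold and the X-linked ones; others are named to account for every member. Array sets were bounded at ratios of 1.9 and 10. Replicate numbers were checked for pairing: deviations of same-numbered arrays correlated at 0.28 to 0.39 at 14 dpp, as did other arrays of the same set (0.29 to 0.38), and at −0.23 to 0.78 at 17 dpp, so the numbers were not taken as pairs. Alternatives were other scalings, filters and offsets, array set and replicate blocks, array weights, a model without moderation, 1 age alone, means over probe sets, and leaving out each array.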

Additional observations from a re-analysis of the deposited data

Results flagged for a closer look

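In Tex30, wild-type replicate 1 of 17 dpp had the lowest signal of its group at 10779, apart from the other 4 at 17930 to 20459; it is the 1 wild-type array of 17 dpp in array set 1. This was the 1 such array among 39 groups of 13 called members, and chance alone gives about 1 in 20.

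The genotype difference of Spata33 changed between the ages by −2.41, from −1.10 at 14 dpp to −3.51 at 17 dpp, by the interaction test in limma (adjusted p = 0.0154).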

How the results depend on the processing

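All 12 lower members stayed negative at 17 dpp under all alternatives run, and Spata4, Spata33 and Spata16 passed under all of them; the causes of the moves below were not tested. At 14 dpp (1 lower, 0 higher) the members lower were 8 and higher 2 with array weights. That setting called 1187 of all 15266 genes lower and 838 higher at 14 dpp, against 49 and 0 in the main fit. At 14 dpp 2 members were lower without the set 3 arrays and with the arrays of 14 dpp only. At 17 dpp (12 lower, 1 higher) 6 were lower within set 1, where 1 wild-type array was left. The members higher were 0 on a common median, without the set 3 arrays, within set 1, with array weights, with 17 dpp only and with means of probe sets, 3 within set 3 and 5 with the array set block. The genotype difference changed with age in 1 member, and in 0 on a common median, within set 1 and in the plain model at 0.025. It did so in 2 with quantile normalization and with means of probe sets, 3 with 32 added and without set 3, and 5 with the array set block and with array weights. For age in wild type (2 fell, 9 rose), 0 fell with quantile normalization, on a common median and within set 1, 1 with either block and in the plain model at 0.025, 4 with 32 added and with means of probe sets, and 6 with array weights. There 3 rose within set 1 and 18 with array weights. In mutants (0 and 0), 2 rose with quantile normalization and on a common median, and 5 fell and 6 rose with array weights. Over all genes, array weights called 6184 as falling and 2400 as rising with age in wild type, and 4455 and 1618 in mutants. Signs turned for the rise of Tex30 within set 1 (−0.019) and of Tex9 with the mean of its probe sets (−0.12). Onset at 17 dpp held 4 members at the 50th percentile. With the replicate number as a block, 12 members were lower and 1 higher at 17 dpp, 1 was lower at 14 dpp, and 8 rose and 1 fell with age in wild type. Leaving out each array gave 1 lower at 14 dpp, 9 to 12 lower and 0 to 2 higher at 17 dpp, and 0 to 2 for the change of the difference. It gave 0 to 4 falling and 6 to 12 rising with age in wild type, and 0 to 3 and 0 to 2 in mutants. For the called results of single members, 727 values kept direction and side of the threshold, 103 lost the call and 2 turned. Of the uncalled members, 23 of 43 at 14 dpp and 19 of 31 at 17 dpp changed sign under at least 1 alternative, and 9 and 6 gained a call. Dim members near background, such as Tex24, Tex47 and Spata16 in mutants and Spata4 in mutants of 14 dpp, have no reliable size of change.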
